A study of Rattus norvegicus and Mus musculus with 24 samples.

Results

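Kidney RNA of Ctns knockout mice was compared with that of wild-type mice in 8 bulk RNA sequencing libraries, of 24 in the series. The members were chosen by species and by the genotype in the sample labels, with 4 Ctns KO mice (numbers 3, 5, 6 and 8) and 4 Ctns WT mice (numbers 1, 2, 4 and 7). The other 16 libraries came from rats. The Ctns knockout line was kept on a C57BL/6 background, and the WT mice were littermates. No Cre driver and no treatment is named for either group, and the age of the sequenced mice is not stated. The study's methods name female mice of several ages for its mouse work, and the sample labels give no sex. Kidney cortex is the tissue given in the methods. The labels also name kidney cortex, but give proximal tubule cells as the cell type and describe tubules dissected from the kidney. Each number was taken as 1 mouse, so p-values measure the spread between these mice.

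Ctns encodes cystinosin, the transporter that carries cystine out of the lysosome. Without it cystine builds up in lysosomes, and in people this causes cystinosis, in which the proximal tubule fails to take up filtered solutes and proteins. The proximal tubule normally recovers most of the filtered load through apical carriers and through the endocytic receptors megalin and cubilin, and its mature cells divide rarely. The comparison asks what the loss of this transporter does to gene expression in the kidney.

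The deposited table gives 17376 gene symbols in capitals, as human genes are written. Each value is the number of reads on a gene divided by the library's 75th percentile, after 0.5 was added to both, so that a scaled value of 1 is the level of the 75th percentile gene. Between 19309371 and 44449845 reads per library fell on genes. Markers of other cortical cells stood beside those of the proximal tubule: over the 8 libraries UMOD of the thick limb had 82021 to 222874 reads and SLC12A3 of the distal tubule 43233 to 78857. RNA of cell types other than the proximal tubule was therefore measured too. In bulk RNA, fewer cells of a type and less RNA per cell cannot be told apart. KO mouse 3 stood apart from the other mice in XIST, the RNA of the inactive X chromosome, with 49 reads against 17581 to 42003 in the others. The 5 Y-linked symbols in the table had 0 reads in every mouse. Several counts are therefore also given without KO mouse 3. The first principal component took 43.5% of the variance and placed all KO mice on one side (-28.6 to -13.5) and all WT mice on the other (14.8 to 27.1).

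Ctns itself was measured first, since it checks the labels. It lies on chromosome 11 of mm10 at chr11:73183596-73199042, on the minus strand, with 11 exons in its first annotated transcript, and no other annotated gene overlaps it. The scaled value was 0.342, 0.338, 0.319 and 0.331 in KO mice 3, 5, 6 and 8, and 0.824, 1.03, 0.878 and 0.944 in WT mice 1, 2, 4 and 7. All KO mice lay below all WT mice. The mean was 0.332 ± 0.0102 (SD, n = 4) in KO and 0.918 ± 0.0868 (SD, n = 4) in WT mice, 2.75-fold lower in KO mice. On the log2 scale the fold change was -1.46 with a standard error (SE) of 0.08 (adjusted p = 1.72e-07, limma with Benjamini-Hochberg adjustment). The KO libraries still held 327 to 556 reads of the gene. Without KO mouse 3 the log2 fold change was -1.47 (adjusted p = 2.64e-06, limma).

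After a filter on the mean over all mice of at least 10 reads, 13392 symbols were tested with limma, and 1158 of them (8.65%) passed an adjusted p of 0.05. Of these, 850 rose (6.35% of those tested) and 308 fell (2.30%) in KO mice. The rises were also larger: 290 genes rose and 12 fell by more than 2-fold. Rises and falls lay on genes at different levels. Among genes with a mean scaled value of 0.01 to 0.1 there were 326 rises and 15 falls, whereas from 1 to 10 there were 97 rises and 172 falls. The median log2 fold change of all tested genes was 0.01. Groups did not overlap for 1907 genes (14.2%), with 1249 higher (9.33%) and 658 lower (4.91%) in KO mice, among them 1090 of the 1158 called. With edgeR on the recovered reads 1179 genes (8.80%) passed, 1102 of them shared with limma. DESeq2 called 922 higher and 585 lower. Leaving out single mice changed the count, to 640 without KO mouse 5, 638 without KO mouse 6 and 1405 without WT mouse 2. Such fits, here and below, also have fewer mice. Whether calls were lost through the mouse or through the smaller group was not tested. The falls numbered 174, 113 and 104 without KO mouse 3, 5 or 6, and 202 without WT mouse 4. In all, 574 genes (49.6% of those called) were called in each of the fits that left out 1 mouse.

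**Figure D1:**
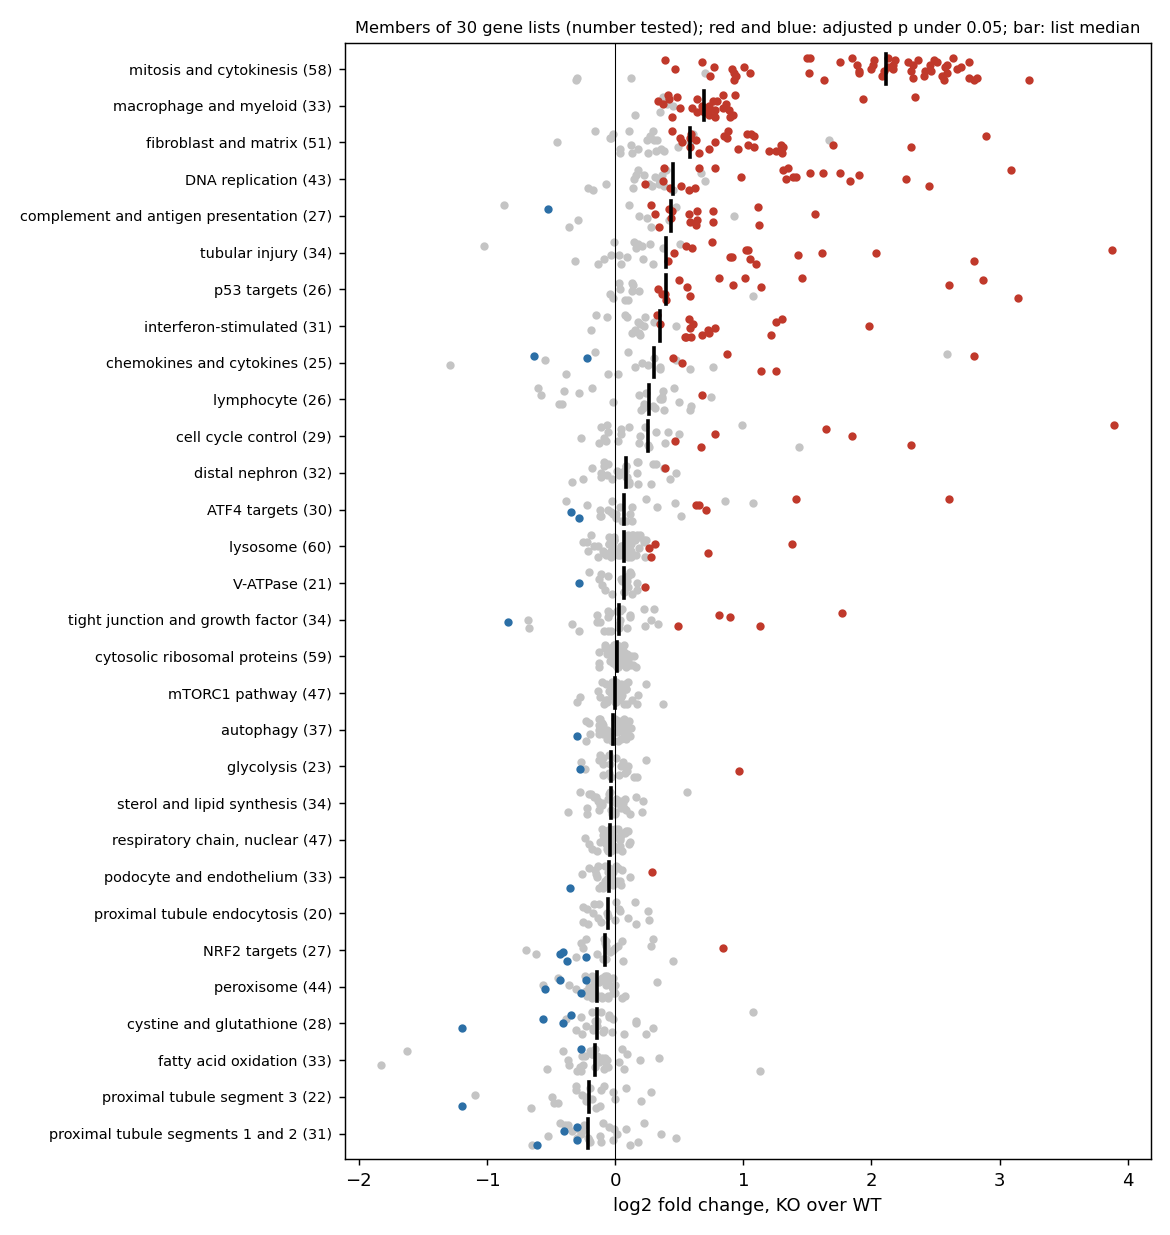
Each point is a tested member of a gene list, placed by its log2 fold change (KO over WT, 4 mice each). Coloured points passed an adjusted p of 0.05 (limma), and bars are list medians. The mitosis list lies farthest to the right with a median of 2.11, and the lists of proximal tubule segments 1 and 2 and of segment 3 have medians of -0.21, while that of endocytosis has -0.06.

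Genes of mitosis rose at the highest share of any of the 30 lists. Of 58 tested genes of mitosis and cytokinesis, 54 rose and 0 fell, with a median log2 fold change of 2.11, and without KO mouse 3 the number was 51. Cyclin A2, which drives S phase and entry into mitosis, had a scaled CCNA2 value of 0.18, 0.236, 0.161 and 0.113 in the KO mice and 0.0283, 0.0433, 0.0161 and 0.0243 in the WT mice. The lowest KO mouse lay above the highest WT mouse, and the level was 6.34-fold higher in KO mice (log2 fold change 2.66, SE 0.30, adjusted p = 0.00029, limma). CDC20, which activates the anaphase-promoting complex, rose 3.75-fold, from 0.0339 to 0.0532 in WT mice to 0.106 to 0.251 in KO mice. PBK, a mitotic kinase, rose 6.97-fold and CKAP2, a spindle protein, rose 6.79-fold. CCNB1, or cyclin B1, rose 7.06-fold, but its recovered reads were not whole and more than 1 mouse gene may stand under the symbol. CDC25C, the phosphatase that activates CDK1, had the largest log2 fold change of the list, 3.23, on only 11 to 35 reads in KO and 0 to 5 reads in WT mice. It lost its call without KO mouse 3 or WT mouse 1 (adjusted p = 0.0608 and 0.0542, limma). Without KO mouse 5 or 6 its mean fell below the filter of 10 reads, so it was tested in only 6 of the 8 fits that left out 1 mouse.

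Of 43 tested DNA replication genes 23 rose and 0 fell (median 0.45). The largest changes were in DTL, a ubiquitin ligase adaptor that acts on chromatin in S phase (8.48-fold), CLSPN, the checkpoint mediator claspin (5.46-fold), EXO1, an exonuclease (4.82-fold), and CDC6, which loads the replicative helicase (3.74-fold). DTL had a scaled value of 0.0757, 0.054, 0.0514 and 0.0402 in KO mice and 0.00667, 0.0104, 0.00514 and 0.00456 in WT mice. PCNA, the sliding clamp of the replication fork, rose less, 1.18-fold (log2 fold change 0.24, adjusted p = 0.0341, limma), and was not called without KO mouse 3, 5, 6 or 8 or WT mouse 4 (adjusted p = 0.0725 to 0.117, limma). The genes that control the cycle numbered 29, of which 7 rose and 0 fell, and 11 were called without WT mouse 2. They include CDKN3, a phosphatase of cyclin-dependent kinases (14.8-fold, with 1 to 7 reads in the WT mice), the E2F family repressors E2F8 (4.94-fold) and E2F7 (3.61-fold), and FOXM1, the transcription factor of the G2 and M phases. E2F7 lost its call whichever KO mouse was left out (adjusted p = 0.0556 to 0.117, limma). FOXM1 was at 0.116, 0.128, 0.0942 and 0.0789 in the KO mice and 0.0257, 0.04, 0.0353 and 0.0319 in the WT mice, a 3.13-fold rise (adjusted p = 0.000158, limma). Within the KO group the mitosis genes were highest in mouse 5 and lowest in mouse 8, with a mean log2 difference from the WT average of 2.27 and 1.39. The WT mice ranged from -0.24 to 0.37.

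Targets of p53, the transcription factor that answers DNA damage and other stress, rose at 15 of 26 tested genes and fell at 0 (median 0.39; 11 rose without KO mouse 3). CDKN1A, the inhibitor p21 that arrests the cell cycle, had a scaled value of 1.03, 1.69, 1.55 and 1.12 in the KO mice and 0.208, 0.156, 0.202 and 0.163 in the WT mice. This was a 7.3-fold rise (log2 fold change 2.87, SE 0.17, adjusted p = 1.64e-05, limma). EDA2R, a receptor of the tumour necrosis factor family, rose 8.84-fold, and GDF15, a secreted stress cytokine, rose 6.09-fold with all KO mice at 0.281 to 0.335 and all WT mice at 0.0389 to 0.0676. PHLDA3, which restrains AKT, rose 2.74-fold. Rises of a cell cycle inhibitor and of mitotic genes thus stood in the same libraries, and whether they came from the same cells cannot be read from bulk RNA.

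**Figure D2:**
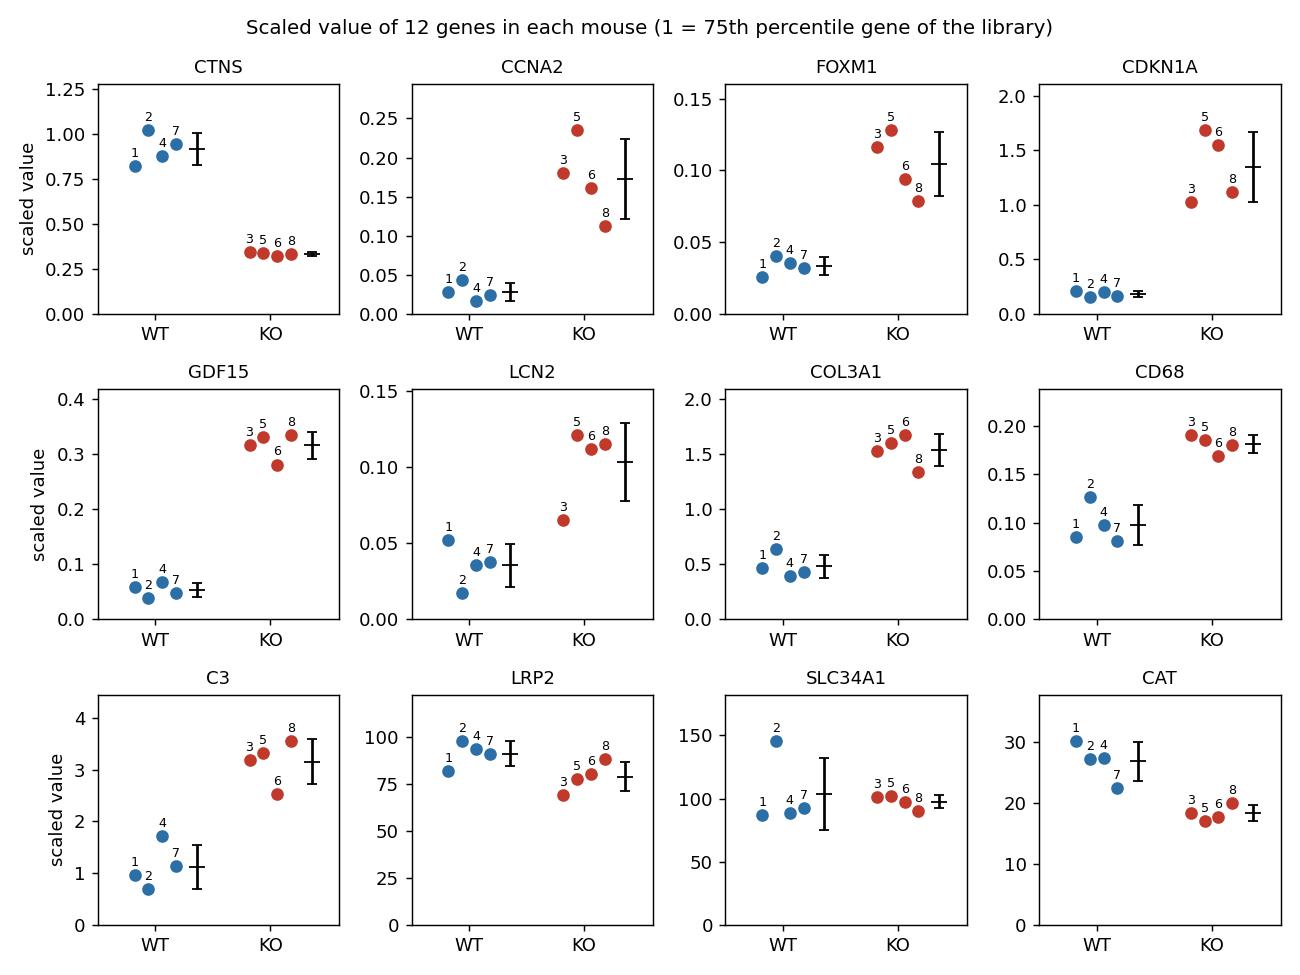
Points are the scaled values of each mouse, with its number, on linear axes that start at 0. The black mark and bar beside each group are the mean and SD of 4 mice. The groups do not overlap for CTNS, CCNA2, FOXM1, CDKN1A, GDF15, LCN2, COL3A1, CD68, C3 and CAT, and they overlap for LRP2 and SLC34A1.

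Among all genes with a mean of at least 1 CPM (reads scaled to the library total) and groups that did not overlap, the largest rise was that of LPO, which encodes lactoperoxidase. It had 31, 63, 117 and 51 reads in KO mice and 1, 0, 0 and 4 in WT mice, and its 55.4-fold change depends on the 0.5 reads added to each value. ANO3, of the anoctamin family, changed 37.7-fold on 29 to 123 reads in KO and 0 to 6 in WT mice. PSRC1, a microtubule-binding protein of the mitotic spindle, rose 20.5-fold on more reads, with a scaled value of 0.228, 0.296, 0.25 and 0.191 in KO mice and 0.0124, 0.0148, 0.0106 and 0.00937 in WT mice (adjusted p = 2.61e-08, limma). NTM, a neuronal adhesion protein, rose 10.3-fold, ESCO2, which acetylates cohesin in S phase, 9.72-fold, and FOXJ1, the transcription factor of motile cilia, 7.81-fold. KRT20, EDA2R, DTL and LTBP2 complete the 10 largest rises and stand with their groups.

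The largest falls were smaller than the largest rises. After CTNS came SLC22A3, an organic cation transporter, 2.27-fold lower with 22 to 50 reads in KO and 40 to 112 in WT mice, and INTS2, a subunit of the Integrator complex that processes small nuclear RNAs, 2.16-fold lower. INTS2 had a scaled value of 1.07, 0.971, 1.03 and 1.14 in KO mice and 2.02, 2.4, 2.12 and 2.58 in WT mice (log2 fold change -1.11, SE 0.08, adjusted p = 4.08e-06, limma). TF, the iron carrier transferrin, fell by 1.06 on the log2 scale and LRAT, which esterifies retinol, by 1.02. PITPNM3, a phosphatidylinositol transfer protein, fell by 1.01, and BHMT, which remethylates homocysteine and whose reads were not whole, by 0.91. UGT1A1, which conjugates bilirubin, fell by 0.89. TLCD3B fell by 0.96 (adjusted p = 0.021; 0.0582 without KO mouse 3, limma) and MT-TT, a mitochondrial tRNA that mRNA libraries capture poorly, by 0.91 on 31 to 142 reads. TF lost its call without KO mouse 6 or 8 (adjusted p = 0.0532 to 0.0665, limma), TLCD3B also without KO mouse 6 or WT mouse 4 (at most 0.0715), and MT-TT without KO mouse 5 or 6 or WT mouse 1 or 7 (0.0575 to 0.0961).

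Tubular injury genes rose at 16 of 34 tested members and fell at 0 (median 0.40). KRT20, a keratin, was at 0.058, 0.111, 0.0955 and 0.0664 in KO mice and 0.00286, 0.00274, 0.00789 and 0.0142 in WT mice, a 14.7-fold rise (adjusted p = 0.001, limma). LIF, a cytokine of the interleukin-6 family, rose 6.97-fold, TIMP1, an inhibitor of matrix metalloproteinases, 4.09-fold, and LCN2, the secreted injury marker NGAL, 3.06-fold. LCN2 was lowest of the KO mice in mouse 3, at 0.0653 against 0.112 to 0.121 in the others, with WT mice at 0.017 to 0.0518. SOX9, a transcription factor of repairing tubule cells, rose 2.05-fold (adjusted p = 0.00158, limma). HAVCR1, the marker KIM-1, whose reads were not whole, had a log2 fold change of -0.14 and did not pass the test (adjusted p = 0.86, limma). VIM, vimentin, was 1.22-fold higher with overlapping groups and did not pass either (adjusted p = 0.249, limma).

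Genes of the mature proximal tubule that passed the test fell. None of 20 endocytosis genes passed in limma or edgeR (median -0.06). At an unadjusted p under 0.05 in limma 3 were higher and 3 lower in KO mice, TMM scaling, edgeR with DESeq2's size factors and DESeq2 called at most 2, and 1 was called without WT mouse 2, 4 or 7. LRP2, or megalin, was at 69.4, 77.8, 80.2 and 88.2 in KO mice and 82.2, 98.3, 93.8 and 91 in WT mice, a log2 fold change of -0.21 with an SE of 0.10 (adjusted p = 0.228, limma). CUBN, or cubilin, had a log2 fold change of -0.16 (adjusted p = 0.405, limma). Of 31 genes of segments 1 and 2, 4 fell (12.9%, against 2.30% of all tested genes) and 0 rose (median -0.21). Among them were FBP1, of gluconeogenesis (log2 fold change -0.40), FOLR1, the folate receptor (-0.30), and HNF4A, the transcription factor of the mature proximal tubule (-0.30). This count ranged widely, with 2 without KO mouse 3 or 5, 1 without KO mouse 6, 7 without WT mouse 1 or 2, and 8 with DESeq2. HNF4A lost its call without KO mouse 3, 5, 6 or 8 or WT mouse 4 or 7 (adjusted p = 0.065 to 0.174, limma), and FOLR1 without KO mouse 6 (adjusted p = 0.0662, limma). SLC5A2, the glucose carrier SGLT2, and SLC34A1, the phosphate carrier, did not pass, with log2 fold changes of -0.09 and -0.05. WT mouse 2 held 19.5 for SLC5A2 and 146 for SLC34A1, above 11.6 to 12.7 and 86.7 to 92.6 in the other WT mice, and without it both log2 fold changes turned positive, to 0.08 and 0.13. Of 22 segment 3 genes 1 fell (4.55%, against 2.30% of all tested genes). It was SLC7A13, a cystine and glutamate carrier, on 5 to 31 reads (adjusted p = 0.0495, limma), a call lost in 7 of the 8 fits that left out 1 mouse. The list's count was 0 without KO mouse 5 or 6 or WT mouse 1 or 4, 2 without WT mouse 2 or 7, and 5 with DESeq2. SLC3A1 and AQP1 did not pass, at log2 fold changes of -0.26 and -0.29.

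Macrophage genes rose at most tested members. Of 33 tested macrophage and myeloid genes 28 rose and 0 fell (median 0.69; 27 without KO mouse 3). The summed level of the list was 747 to 939.5 CPM in KO and 481.5 to 538.7 CPM in WT mice. CD68, a lysosomal protein of macrophages, was at 0.191, 0.186, 0.169 and 0.181 in KO mice and 0.0848, 0.127, 0.0978 and 0.081 in WT mice, a 1.89-fold rise (adjusted p = 0.00103, limma). GPNMB and TREM2, which mark lipid-laden and phagocytic macrophages, rose 5.06-fold and 3.81-fold, and MS4A7 1.91-fold. Of 26 lymphocyte genes 18 had a positive log2 fold change (median 0.27), and 1 rose (3.85%, against 6.35% of all tested genes). It was CXCR6, a chemokine receptor (1.6-fold, adjusted p = 0.0435 with limma and 0.0532 with edgeR), which lost its call whichever of the 8 mice was left out. The lists were not tested against each other. The summed level of the lymphocyte list was 51.6 to 165.8 CPM in KO and 49.0 to 196.4 CPM in WT mice. The defining markers CD3E and CD79A had at most 43 and 36 reads. How far the rise in macrophage genes carries the other changes was not tested.

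Complement and antigen presentation genes rose at 16 of 27 tested members and fell at 1 (median 0.44). C3, the central complement protein, was at 3.19, 3.33, 2.54 and 3.57 in KO mice and 0.956, 0.698, 1.71 and 1.13 in WT mice, 2.94-fold higher (adjusted p = 0.017, limma). C7, of the membrane attack complex, rose 2.18-fold, and the receptors C5AR1 and C3AR1 rose 2.16-fold and 1.7-fold. The number called was 6 without KO mouse 5 and 11 without KO mouse 6, and 14 rose without KO mouse 3. C3 lost its call without KO mouse 5 or 8 or WT mouse 1 (adjusted p at most 0.0609, limma), C3AR1 without KO mouse 5, 6 or 8 or WT mouse 1 or 4 (at most 0.102), and C5AR1 without KO mouse 5 or 6 (at most 0.0598). Of 31 interferon-stimulated genes 16 rose and 0 fell (median 0.35; 12 rose without KO mouse 3). XAF1, a proapoptotic protein, rose 3.95-fold, OAS3 and OAS2, which sense double-stranded RNA, 2.47-fold and 2.33-fold, and CXCL10, a chemokine for T cells, 2.38-fold. OAS3 lost its call without KO mouse 5, 6 or 8 or WT mouse 4 or 7 (adjusted p = 0.0566 to 0.118, limma). XAF1 lies within 1 Mb of Ctns. Of 25 chemokines and cytokines 6 rose and 2 fell. CSF1 and IL34, the ligands of the macrophage receptor CSF1R, rose 1.83-fold and 2.2-fold. IL34 was at 0.218, 0.254, 0.231 and 0.228 in KO mice and 0.128, 0.0915, 0.105 and 0.102 in WT mice (adjusted p = 6.37e-05, limma).

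Matrix genes rose at 27 of 51 tested members and fell at 0 (median 0.58; 26 without KO mouse 3). LTBP2, which binds elastic fibres, rose 7.44-fold from 0.0192 to 0.0271 in WT mice to 0.117 to 0.2 in KO mice. MMP2, a gelatinase, rose 4.96-fold, and COL3A1, the fibrillar collagen III, 3.24-fold, at 1.53, 1.61, 1.67 and 1.34 in KO mice and 0.465, 0.634, 0.39 and 0.432 in WT mice. CCN1, a matricellular protein, rose 2.48-fold, a call lost without KO mouse 6 or 8 or WT mouse 1 (adjusted p = 0.0593 to 0.0616, limma). The fibroblast receptors PDGFRA and PDGFRB had log2 fold changes of 0.32 and 0.18 and did not pass the test (adjusted p = 0.0686 and 0.277, limma), and ACTA2, of smooth muscle and myofibroblasts, had 0.13 (adjusted p = 0.832, limma). Of 34 tight junction and growth factor genes 5 rose and 1 fell. IGFBP2, which binds insulin-like growth factors, rose 3.41-fold, NRG1, a ligand of ERBB receptors, 2.19-fold, and HGF, the ligand of MET, 1.86-fold. IGFBP2 lost its call without KO mouse 5, 6 or 8 or WT mouse 2 (adjusted p = 0.0522 to 0.077, limma), and HGF without KO mouse 5 or 6 or WT mouse 4 (0.057 to 0.0897). IGFBP3 fell by 0.84 on the log2 scale, from 5.67 to 8.31 in WT mice to 3.45 to 4.73 in KO mice. TJP1, which encodes the junction protein ZO-1, and YBX3, the transcription factor ZONAB, had log2 fold changes of 0.09 and -0.04 and did not pass (adjusted p = 0.446 and 0.787, limma).

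**Figure D3:**
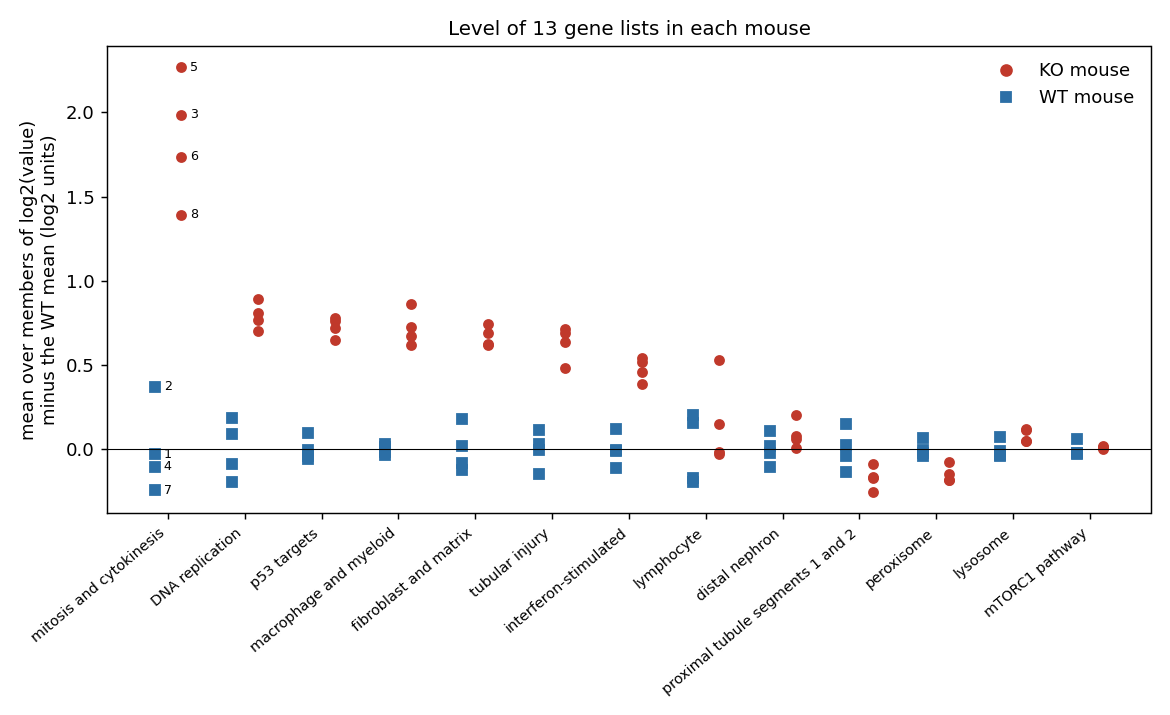
For each mouse, the mean over a list's tested members of log2(scaled value) minus the average of the WT mice, in log2 units. Circles are KO and squares WT mice, and numbers name the mice for the mitosis list. KO and WT mice separate for the cell cycle, p53, macrophage, matrix, injury and interferon lists, and lie within 0.12 of 0 for the mTORC1 and lysosome lists. They also separate, by less, for the peroxisome list, at -0.18 to -0.08 in KO and -0.04 to 0.07 in WT mice.

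The lysosome, where cystinosin acts, had a share of called genes near that of all genes. Of 60 tested lysosomal genes 5 rose and 0 fell (8.33%, against 8.65% of all tested genes, median 0.07). CTSK and CTSS, cathepsins known from osteoclasts and macrophages, rose 2.6-fold and 1.65-fold. HEXA, a hexosaminidase, and GLB1, a galactosidase, rose by log2 fold changes of 0.31 and 0.28, and edgeR did not call GLB1 (adjusted p = 0.0547, edgeR). Of the 5, edgeR called 3. HEXA lost its call without KO mouse 5, 6 or 8 or WT mouse 1 or 4 (adjusted p = 0.0586 to 0.107, limma), and GLB1 without KO mouse 3, 5 or 6 or WT mouse 1, 4 or 7 (0.0713 to 0.165). The number was 3 without KO mouse 3 or 8 or WT mouse 4, 2 without KO mouse 5 or 6 or WT mouse 1, and 8 without WT mouse 2. LAMP1, the membrane protein, was at 28.8 to 30.9 in KO and 25.4 to 28.9 in WT mice (log2 fold change 0.13, adjusted p = 0.372, limma), and CTSD, cathepsin D, had a log2 fold change of 0.22 with groups that did not overlap (adjusted p = 0.0894, limma). TFEB, the transcription factor of lysosome genes, had -0.13 (adjusted p = 0.472, limma). Of 21 subunits of the V-ATPase, which acidifies the lysosome, 9.52% passed, also near the 8.65% of all tested genes. ATP6V0A1 rose 1.18-fold and ATP6V1G1 fell by 0.28 on the log2 scale, and neither was called without KO mouse 5 or KO mouse 6.

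The mTORC1 pathway joins lysosomal nutrients to growth. None of its 47 tested genes passed in limma or edgeR, 4 had an unadjusted p under 0.05 in limma, and their median log2 fold change was 0.00 with single genes between -0.29 and 0.37. DESeq2 called 1, and 2 were called without WT mouse 2. MTOR was at 4.33, 4.44, 4.42 and 4.66 in KO mice and 3.91, 4.71, 4.22 and 4.16 in WT mice (log2 fold change 0.07, SE 0.07, adjusted p = 0.606, limma). RRAGC, a Rag GTPase, had 0.17 (adjusted p = 0.162, limma), LAMTOR2, of the Ragulator, had -0.07 (adjusted p = 0.657), and EIF4EBP1, a substrate, had 0.03 (adjusted p = 0.87). RNA levels do not measure the activity of this kinase complex. Of 37 autophagy genes 1 fell (2.7%, against 2.30% of all tested genes). It was PINK1, a kinase of mitophagy (log2 fold change -0.29, adjusted p = 0.0149, limma), which was not called without KO mouse 6. MAP1LC3B, the autophagosome protein LC3B, is not in the tested set.

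In the lists of peroxisome, fatty acid oxidation, respiratory chain, glycolysis and sterol synthesis genes 0% to 9.09% of tested members passed in either direction. Of all tested genes 8.65% did. Most of the called members fell. Other metabolic enzymes, grouped after their values were seen, are given under the other observations. Of 44 peroxisomal genes 4 fell and 0 rose, and these falls are 9.09% against the 2.30% of all tested genes that fell. The list's median was -0.14, and 41 of the 44 had a negative log2 fold change. CAT, catalase, fell by 0.54 on the log2 scale, from 30.2, 27.2, 27.4 and 22.4 in WT mice to 18.4, 17.1, 17.7 and 20 in KO mice (adjusted p = 0.00275, limma). SCP2, a lipid carrier, fell by 0.43, PHYH, which oxidises phytanic acid, by 0.26, and AMACR, a racemase, by 0.23. PHYH lost its call without KO mouse 3, 5, 6 or 8 or WT mouse 2 or 7 (adjusted p = 0.0503 to 0.0968, limma), and AMACR without KO mouse 3, 5 or 6 or WT mouse 4 (0.056 to 0.0799). The number was 2 without KO mouse 3, 5 or 6, 7 without WT mouse 2, and 10 with DESeq2. Of 33 fatty acid oxidation genes only HADH fell (-0.27), and it lost its call without KO mouse 3, 5, 6 or 8 or WT mouse 1 or 4, while 5 genes of the list were called without WT mouse 2 and 6 with DESeq2. No nuclear gene of the respiratory chain passed among 47 tested with limma (4 lower at an unadjusted p under 0.05, edgeR called 1, DESeq2 2, and limma 1 without WT mouse 2 or 7), with log2 fold changes of -0.03 for ATP5F1B and -0.06 for ATP5F1A. In glycolysis, ENO2 rose 1.95-fold and PDK2 fell by 0.27 among 23 tested. PDK2 lost its call in 7 of the 8 fits that left out 1 mouse, all but that without WT mouse 1 (adjusted p = 0.0511 to 0.134, limma), with 1 gene of the list called without KO mouse 3, 5, 6 or 8 or WT mouse 4 or 7. None of 34 sterol and lipid synthesis genes passed in limma (2 lower at an unadjusted p under 0.05, edgeR and DESeq2 called 1 each, and limma 1 without KO mouse 6 or WT mouse 1 or 2), with HMGCS1 between 3.49 and 9.05 in the WT mice alone.

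Stress genes passed in both directions. Of 30 ATF4 targets 5 rose and 2 fell (median 0.07), led by GDF15, ATF3, a transcription factor of the early stress response (2.65-fold), CEBPB (1.64-fold) and DDIT4, an inhibitor of mTORC1 (1.57-fold). The number called was 4 without KO mouse 3 or WT mouse 7, 3 without KO mouse 5, and 2 without KO mouse 6 or WT mouse 4. CEBPB lost its call without KO mouse 5 or 6 or WT mouse 4 (adjusted p = 0.0829 to 0.1, limma), and DDIT4 without KO mouse 6 or WT mouse 4 or 7 (0.0576 to 0.0753). Of 27 NRF2 targets EPHX1, an epoxide hydrolase, rose 1.79-fold (adjusted p = 1.03e-05, limma), while 4 fell, with GSTP1 (reads not whole) at -0.43, GSR, glutathione reductase, at -0.40, and ABCC2, an export pump, at -0.38. That list had 1 to 3 called genes without KO mouse 3, 5, 6 or 8 or WT mouse 1 or 4, and 10 without WT mouse 2. Of 28 genes of cystine and glutathione handling 4 fell and 0 rose (median -0.14). GSR lost its call in 7 of the 8 fits that left out 1 mouse, all but that without WT mouse 2 (adjusted p = 0.0629 to 0.124, limma), ABCC2 without KO mouse 3, 5 or 6 or WT mouse 4 (at most 0.0897), and GSTP1 without KO mouse 5 or 6 (at most 0.0566). Besides SLC7A13 and GSR the members that fell are GGT6 (-0.57), of the glutamyltransferase family, and CTH (-0.35), which makes cysteine. CTH was not called without KO mouse 3, 5 or 6 or WT mouse 4 or 7 (adjusted p = 0.0529 to 0.0934, limma). Only 1 or 2 were called without KO mouse 3, 5, 6 or 8 or WT mouse 4 or 7.

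Of the distal nephron list 3.12% was called and of the podocyte and endothelial list 6.06%, against 8.65% of all tested genes. Of 32 distal nephron genes SLC26A4, the exchanger pendrin, rose 1.31-fold, and 4 were called without WT mouse 2 or with DESeq2 and 2 without KO mouse 3 or 8. Of 33 podocyte and endothelial genes KDR, the receptor of VEGF, fell by 0.35 on the log2 scale and KIRREL1, of the slit diaphragm, rose 1.22-fold. KDR lost its call without KO mouse 3 or 6 (adjusted p = 0.0504 to 0.0564, limma), and KIRREL1 without KO mouse 5, 6 or 8 or WT mouse 1, 2 or 7 (0.057 to 0.127). Of the list 1 was called without KO mouse 3, 5 or 8 or WT mouse 1 or 2, and DESeq2 called 4. At an unadjusted p under 0.05 in limma 2 of 59 cytosolic ribosomal protein genes were higher in KO mice. None of the 59 passed in limma, edgeR or DESeq2 (median 0.02).

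The genes that lie near Ctns on chromosome 11 were described on their own. Within 10 Mb of Ctns 26 of 247 tested genes were called (10.5%), against 8.76% of 12229 elsewhere, with 16 higher and 10 lower. Among the closest, HASPIN, a histone kinase at chr11:73135485-73138294 and 0.05 Mb away, fell by 0.66 on the log2 scale (adjusted p = 0.0118, limma). PITPNM3 at chr11:72047528-72135778 and GGT6 at chr11:72435526-72438400 lie 1.10 and 0.75 Mb away and fell. XAF1 at chr11:72301629-72313733, 0.88 Mb away, rose 3.95-fold (adjusted p = 9.99e-06, limma). Farther off, INTS2 at chr11:86210681-86257575 lies 13.04 Mb away, and LPO at chr11:87806428-87828289 lies 14.6 Mb away. Of 19 tested genes that lie between them 4 rose, while 6.35% of all tested genes rose. They were DHX40, YPEL2, PRR11 and RAD51C, named after their values were seen, at log2 fold changes of 0.64, 0.96, 1.43 and 0.71. The other 15 did not pass, at log2 fold changes of -0.10 to 0.45. INTS2 and LPO, which bound this stretch, were picked for their large changes. Whether changes cluster there was not tested. The positions come from the mm10 annotation GENCODE vM21, which located 90.11% of the symbols.

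**Figure D4:**
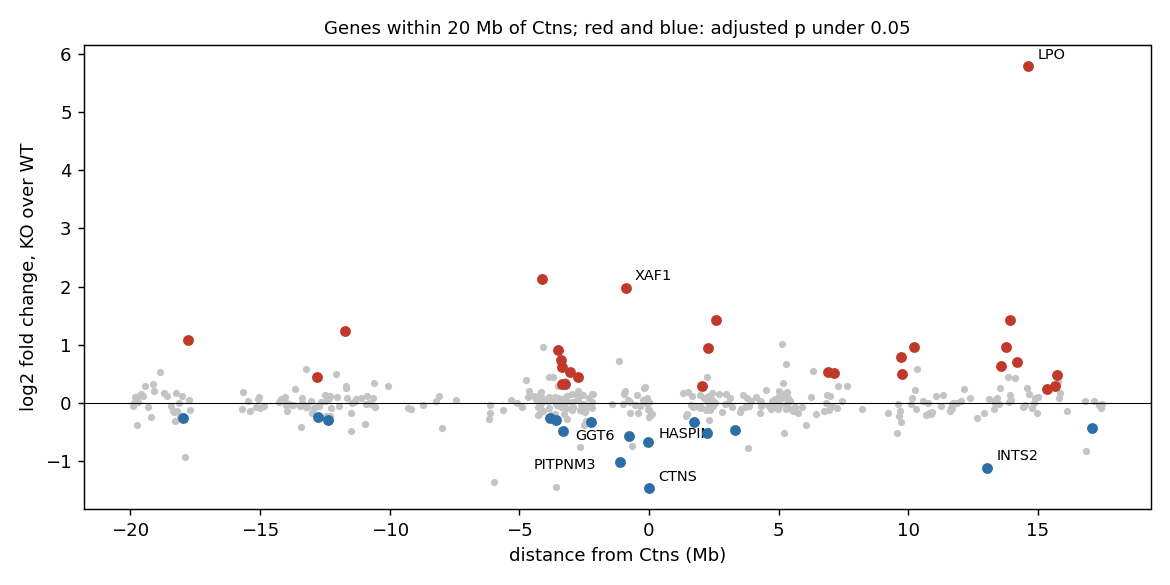
Each point is a tested gene within 20 Mb of Ctns, placed by its distance from Ctns in Mb and its log2 fold change (KO over WT). Coloured points passed an adjusted p of 0.05 (limma). LPO stands alone at 5.79, INTS2 at -1.11 and CTNS at -1.46.

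The changes were then set beside those of Ctns KO rats, with 8 KO and 8 WT animals on a Sprague-Dawley background and no shared controls. In a limma fit over 10698 symbols measured in both species, the change differed between species for 216 genes (2.02%), 134 with the rat change above and 82 below that of the mouse. Of 918 genes called in mice 86 differed (9.37%). These genes were picked on the same mouse values that enter the difference, so their share cannot be set against that of all genes. The same limit holds for PSRC1, PITPNM3 and TF below, which were named for their large change in mice. In this fit 31.3% of genes were called in rats. CTNS fell by 1.46 on the log2 scale in mice and had a change of -0.18 in rats that did not pass (adjusted p = 0.0573, limma). These changes differed (by 1.28, SE 0.13, adjusted p = 1.90e-06, limma). PSRC1 rose by 4.36 in mice and by 0.86 in rats (adjusted p = 2.41e-05, limma). PITPNM3 fell by 1.01 in mice and rose by 0.71 in rats (adjusted p = 0.000254), and TF had -1.06 in mice and 0.16 in rats (adjusted p = 0.0231). INTS2 had -1.11 in mice and -0.17 in rats, a difference that did not pass (adjusted p = 0.0594, limma). CCNA2 changed by 2.66 in mice and 2.57 in rats, a difference of -0.09 with an SE of 0.36, and DTL by 3.08 and 2.32, a difference of -0.77 with an SE of 0.49. SLC34A1, at -0.05 in mice, had -0.59 in rats (adjusted p of the difference 0.108, limma). The rats fall into number ranges that differ strongly and whose meaning the labels do not give. The fit held no term for these ranges and took a shared spread for mice and rats. In it 4 of 29 macrophage and myeloid genes were called in mice, against 28 of 33 with mice alone. A difference that did not pass here therefore does not show that the changes were equal. With rats 17 to 24 alone 195 genes differed from the mice, and with rats 25 to 32 alone 2348. Leaving out KO mouse 3, 5 or 6 or WT mouse 1 or 4 lowered the 216 to 136, 128, 117, 140 and 129.

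**Figure D5:**
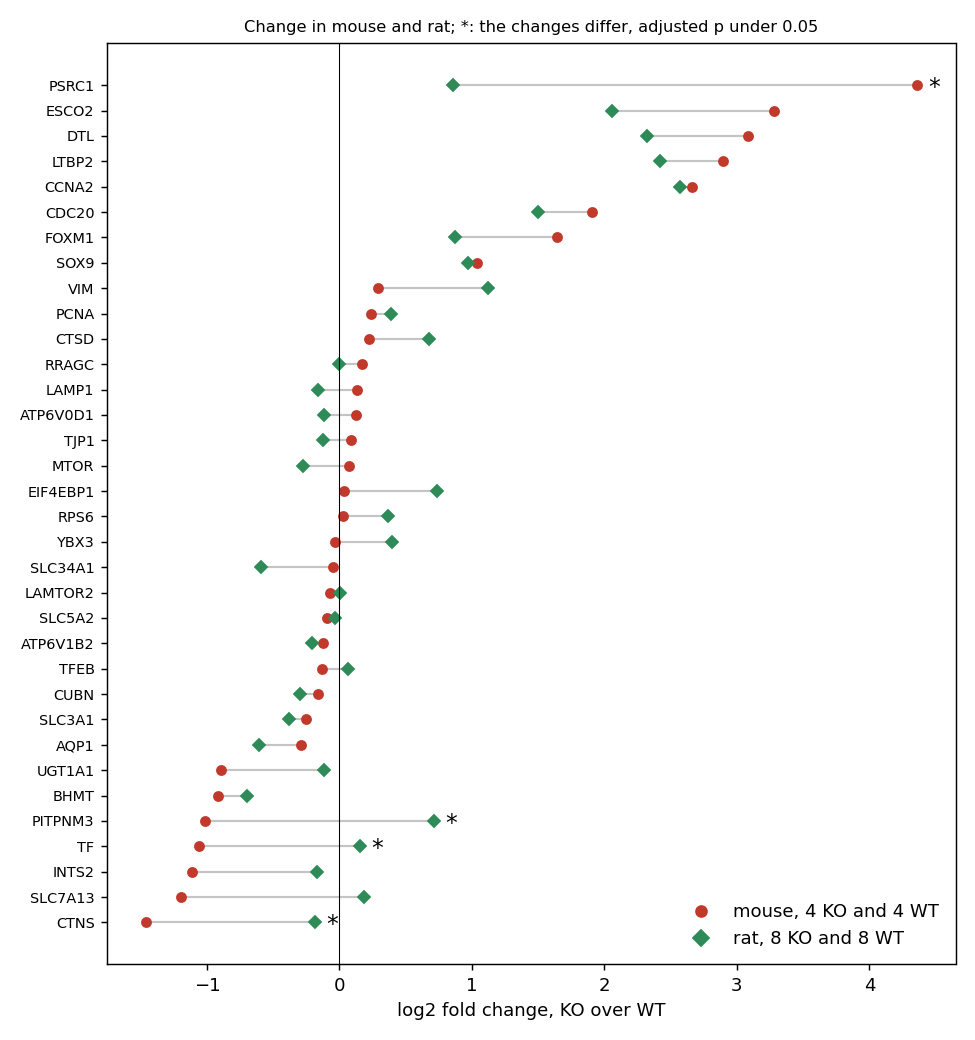
Circles are the log2 fold changes (KO over WT) of 4 KO and 4 WT mice and diamonds those of 8 KO and 8 WT rats. Shown are Ctns, the largest rises and falls in mice and the genes also measured by other methods, where tested in both species. LPO, ANO3, KRT20, NTM, EDA2R, FOXJ1, SLC22A3, LRAT, TLCD3B, MT-TT and LRP2 were not tested in both and are absent. An asterisk marks genes whose changes differ at an adjusted p under 0.05 (limma): PSRC1, PITPNM3, TF and CTNS.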

How the data were processed

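RNA was made into stranded mRNA libraries (TruSeq) and sequenced as paired reads. The authors deposited for each mouse a scaled signal per gene, read from the values as reads plus 0.5 over the library's 75th percentile plus 0.5, and for each rat estimated counts (reads plus 1/6, unscaled). Their processing notes list STAR 2.7.3, DESeq2 1.24.0, R 3.6.1 and the builds mm10 and rn5, without roles. The counting, its annotation and its filters are not given in the sources used here, and symbols of human style can join several mouse genes. The smallest value of a library stands for 0 reads, which gave back whole reads, to within 0.01, for 98.99% of values, all but 317 symbols. No 2 mice of a group agreed within sampling noise (chi-square per degree of freedom at least 12.6 over 12 pairs). Depth was 19309371 to 44449845 reads per mouse, which covers counting error only.

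In R 4.3.3, log2 of the deposited mouse values was tested with limma 3.58.1 (trend and robust) for symbols with a mean of at least 10 reads, without covariates. P-values were adjusted by Benjamini-Hochberg over all tested genes at 0.05, two-sided. edgeR 4.0.16 (quasi-likelihood) and DESeq2 1.42.0 on recovered reads, other pseudocounts, filters and scalings, and leaving out each mouse were alternatives. Rat reads were scaled like the mouse values for the interaction fit. On simulated reads of 13392 genes for the KO and WT mice, limma recovered 94% of 2-fold and 72% of 1.5-fold changes with 16 false calls. Only a small part of these genes was given a change. The false calls are therefore to be weighed against those few changed genes, not against all 13392.

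The members, gene lists and tests were chosen with earlier results of these data known. Genes were named by rule: CTNS, the 10 largest rises and 10 largest falls among called genes averaging 1 CPM or more with separate groups, up to 4 called members of each of 30 lists (or, where none passed, the 2 highest), and genes the study measured by other methods. A few others were named after their values were seen. Some genes that met these rules are not reported here. A planned search of promoters was not run, because the promoter sequences at hand are those of the rat.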

Additional observations from a re-analysis of the deposited data

Results flagged for a closer look

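Some values stood apart from the other 3 mice of their genotype by more than Dixon's 95% limit. Of 238 groups of 4 mice looked at, 9 were marked (3.78%), and chance alone marks about 1 in 20 of independent groups. XIST was added to the genes named by rule, and many of the others were picked for their change. Genes measured in the same mice are also not independent, so the share cannot be set against that rate. KO mouse 3 was the mouse in 5 of them: XIST at 0.0517 against 19.8 to 22.5 in the other KO mice, LTBP2 at 0.117 against 0.19 to 0.2, LCN2 at 0.0653 against 0.112 to 0.121, IGFBP3 at 4.73 against 3.45 to 3.58, and TJP1 at 2.23 against 2.39 to 2.42. WT mouse 2 stood apart in SLC34A1 at 146 against 86.7 to 92.6 and in SLC5A2 at 19.5 against 11.6 to 12.7. Further values were those of RPS6 in WT mouse 1 at 2.08 against 1.86 to 1.9, and TFEB in KO mouse 6 at 0.624 against 0.672 to 0.676.

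Ctns, the largest rises and falls in mice and the genes measured by other methods were compared with rats where tested in both species. The change differed for 4 of them, by the interaction term in limma. Over all symbols tested in both it differed for 216 of 10698 (2.02%). PSRC1, TF and PITPNM3 were named for a large change in these same mice, so these shares cannot be compared. Taken as rat minus mouse, the difference in log2 fold change was 1.28 for CTNS (adjusted p = 1.90e-06), -3.50 for PSRC1 (adjusted p = 2.41e-05), 1.21 for TF (adjusted p = 0.0231) and 1.73 for PITPNM3 (adjusted p = 0.000254).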

How the results depend on the processing

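No paired analysis was possible because the KO and WT mice share no number. The count of genes called (1158) was 638 to 1405 when 1 mouse was left out, with 527 to 1001 higher and 104 to 404 lower. It was 751, with 142 lower, on log2(value + 1) without a filter, and 988, with 209 lower, without the filter alone, and DESeq2 called 585 lower; the cause was not tested. It was 954 to 1507 under the other alternatives. The fall of CTNS passed under every alternative, at -1.41 to -1.51 when 1 mouse was left out and -0.52 on log2(value + 1). Of the 94 named genes that were called, 70 were called on log2(value + 1), 91 with edgeR and 93 with DESeq2, and 59 in each fit that left out 1 mouse, while 35 lost their call in at least 1 of these fits. No called gene changed direction. Uncalled genes that changed direction when 1 mouse was left out were ATP5F1B (-0.0807 to 0.0366), HMGCS1 (-0.0114 to 0.447), RPL4 (-0.0422 to 0.0224), SLC5A2 (-0.169 to 0.0807), SLC34A1 (-0.124 to 0.127), RPS6 (-0.0027 to 0.0612) and EIF4EBP1 (-0.0032 to 0.0725). Genes with a different change in mouse and rat (216) numbered 573 on log2(value + 1) without a filter, 2348 with rats 25 to 32 only, and 117 to 270 when 1 mouse was left out, and the cause was not tested. The share called near Ctns was 10.4% to 11.7% for windows of 5 and 20 Mb and with edgeR. Without the cell cycle lists, or without X-linked genes, both chosen after seeing the data, 1048 and 1135 genes were called. With 4 mice a group, limma recovered 72% of simulated 1.5-fold changes, and folds of genes with few reads in 1 genotype depend on the 0.5 reads added.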

Other observations

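Gene groups chosen after their values were seen are described here without a test of the group. Immediate early and AP-1 genes, the fast transcription factors of stress and growth signals, rose at 9 of 21 tested members and fell at 0. FOSB had a log2 fold change of 2.42 and FOS of 1.88, with 120 to 168 reads of FOS in KO and 28 to 74 in WT mice. Enzymes of tryptophan breakdown fell at 7 of 14 members and rose at 0. They include AFMID (-0.65), KMO (-0.55) and HAAO (-0.52) of the kynurenine route, DDC (-0.59), which makes monoamines, and MAOB (-0.78), which degrades them. Of 18 enzymes of choline, glycine and one-carbon metabolism 7 fell and 0 rose, BHMT (-0.91) and GLDC (-0.46), of the glycine cleavage system, the most. Without KO mouse 3 that number was 2. Of 26 genes of drug transport and metabolism 10 fell and 0 rose, among them SLC22A3 (-1.18), UGT1A1 (-0.89) and FMO1 (-0.60).

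Of 17 motile cilium genes FOXJ1 and CFAP44 rose (11.8%, against 6.35% of all tested genes). CFAP44 had 14 to 29 reads in KO and 0 to 8 in WT mice. INTS2 was the only 1 of 14 Integrator genes to fall (7.14%, against 2.30% of all tested genes). KRT20 was the only 1 of 7 keratins to rise (14.3%, against 6.35% of all tested genes). Of 19 circadian clock genes BHLHE41 rose (0.52) and NR1D1 fell (-0.26), a share of 10.5% against 8.65% of all tested genes. Neither was called without KO mouse 3. Adipocyte genes were high in 1 mouse of each genotype: ADIPOQ was at 0.169 in KO mouse 3 and 0.140 in WT mouse 7, and at most 0.017 in the others, and none of 7 tested passed in limma or edgeR, with 0 at an unadjusted p under 0.05 in limma.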
